A study of Homo sapiens with 32 samples.

Results

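The loops described here were called from in situ Hi-C of HEK293 cells of genotype eGFP-YAP, a human embryonic kidney line with YAP fused to a green fluorescent protein, either untreated or exposed to 200 mM sorbitol for 1 h. The 2 loop lists of these cells were taken by name and held 18966 loops (control) and 5577 loops (sorbitol), together 24543 of the 45629 loops (53.8%) in the 4 lists of the series. The labels name 4 replicates of each group, 8 of 32 samples, but each condition has 1 list with no replicate column, so there is no replicate check, no test between the conditions, and each interval covers counting error only. The series design describes 1 h of serum starvation before sorbitol in eGFP-YAP cells and does not say whether the untreated cells of these lists were starved as well. The line is HEK293 by its labels but HEK293T in the growth protocol, and the labels do not say whether the eGFP-YAP line is a clone. The study asked how hyperosmotic stress changes chromatin contacts, and the comparison below asks how the loops of each list share anchors, enclose and follow one another, where they lie, and which genes start at anchors present in 1 list only.

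A chromatin loop is a pair of distant DNA segments, the anchors, that touch more often than their surroundings. In most mammalian cells cohesin extrudes DNA until it meets CTCF bound in the orientation that faces it, so that CTCF motifs at paired anchors usually point toward each other. Several loops can share an anchor, lie inside one another, or follow one another like links of a chain, and active promoters can also meet each other or enhancers without CTCF at the anchor. Sorbitol draws water out of cells, and YAP is a coactivator of TEAD transcription factors that is held in check by the Hippo kinases and responds to osmotic stress.

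Each anchor was a 5 kb bin. Bins of 1 list whose centres lay within 10 kb were joined into an anchor site, and a site was called kept when the other list had an anchor bin within 10 kb, lost when it was found in the control list alone and gained when it was found in the sorbitol list alone. By this rule 16390 of 21531 control sites were lost (76.1%, 95% Wilson interval 75.5 to 76.7), and 2843 of 7961 sorbitol sites were gained (35.7%, 34.7 to 36.8). Both shares depend on list length and distance: against the 5577 highest-scoring control loops 65.8% were lost and 64.0% gained, with identical bins 89.5% and 67.2%, and with anchors within 25 kb 68.6% and 20.4%. The number of called loops also depends on sequencing depth, which is not given in the sources used here, so "lost" and "gained" describe called lists; the part of depth in these counts was not tested. For this reason the sorbitol list is set beside the control list in full, beside its 5577 highest-scoring loops, and beside 5577 loops taken at even steps along it. The list was in genome order, where loops that share a left anchor are neighbours, so even steps tend to separate them. Hubs and nesting through a shared left anchor are therefore lowered in this thinned list by its construction. The score is the authors' own value for a loop, and it was used only to rank loops within a list.

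The promoters of 4 genes at lost and gained sites with many loops are shown as examples of the sequences found there (RefSeq, GRCh38.p14; 250 bases before to 50 after the start, on the strand of the gene). Capitals mark the GC box GGGCGG, the letters CCAAT and the ETS letters CCGGAAG on either strand. FGFR4 encodes a fibroblast growth factor receptor and lies at the gained site with the most loops (7), FARP2 encodes a FERM domain guanine nucleotide exchange factor, TFAP2A encodes transcription factor AP-2 alpha and lies at the lost site with a gene start that had the most loops (10), and SFMBT2 encodes a Polycomb group protein.
FGFR4, gained, chr5:177086665-177086964, plus strand: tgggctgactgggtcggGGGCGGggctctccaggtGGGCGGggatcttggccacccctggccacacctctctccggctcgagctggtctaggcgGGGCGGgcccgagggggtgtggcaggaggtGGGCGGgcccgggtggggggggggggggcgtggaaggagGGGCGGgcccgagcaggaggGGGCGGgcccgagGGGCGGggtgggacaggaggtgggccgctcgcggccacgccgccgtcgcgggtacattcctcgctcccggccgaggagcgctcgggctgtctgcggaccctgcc
FARP2, gained, chr2:241356035-241356334, plus strand: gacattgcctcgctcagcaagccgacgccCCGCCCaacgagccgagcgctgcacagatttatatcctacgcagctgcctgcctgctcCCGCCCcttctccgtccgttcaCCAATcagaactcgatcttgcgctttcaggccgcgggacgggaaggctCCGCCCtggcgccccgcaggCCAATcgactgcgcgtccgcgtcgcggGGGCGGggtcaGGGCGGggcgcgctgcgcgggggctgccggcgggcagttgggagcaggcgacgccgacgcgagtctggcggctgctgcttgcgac
TFAP2A, lost, chr6:10419610-10419909, minus strand: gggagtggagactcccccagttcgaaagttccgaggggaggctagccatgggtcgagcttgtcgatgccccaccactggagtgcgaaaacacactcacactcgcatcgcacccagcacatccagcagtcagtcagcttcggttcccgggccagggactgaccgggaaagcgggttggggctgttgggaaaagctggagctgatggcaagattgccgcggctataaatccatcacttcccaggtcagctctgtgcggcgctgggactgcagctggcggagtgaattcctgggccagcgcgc
SFMBT2, lost, chr10:7411441-7411740, minus strand: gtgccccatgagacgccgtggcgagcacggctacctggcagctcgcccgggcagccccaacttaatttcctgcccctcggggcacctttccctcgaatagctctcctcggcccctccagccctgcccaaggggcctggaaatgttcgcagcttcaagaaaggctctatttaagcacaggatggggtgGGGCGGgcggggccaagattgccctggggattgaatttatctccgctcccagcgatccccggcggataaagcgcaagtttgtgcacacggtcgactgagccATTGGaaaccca
The FGFR4 promoter held 7 GC boxes and 78.7% GC, and the FARP2 promoter 5 GC boxes, 2 CCAAT and 71.3% GC. The TFAP2A promoter held none of the 3 motifs, and the SFMBT2 promoter 1 GC box and 1 CCAAT, both at 61.7% GC. These 4 were not drawn to represent their classes, which lie closer together: promoters at gained sites had a median GC of 67.0% (quartiles 60.7 to 73.0) and those at lost sites 64.0% (56.0 to 71.5), and CCAAT lay in 39.6% (36.5 to 42.8) and 34.3% (31.6 to 37.1).

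The CTCF motif was searched as a 14-base CTCF consensus with at most 1 mismatch on both strands, and the matches at 3 lost sites and 1 gained site are shown (hg38, capitals mark the 14 bases, 8 bases on either side, written 5′ to 3′ on the strand of the match). All loops of the TFAP2A and SFMBT2 sites ran to the left and their matches were on the minus strand; all 9 loops of the site at PAQR3, which encodes a Golgi membrane protein, ran to the right and its match was on the plus strand. In each of these 3 the motif pointed into the loops; the lost site of ATP13A4 and OPA1, with all 8 loops to the left, held 3 matches on the minus strand and also 1 on the plus strand, which points away. The FGFR4 site had 3 loops to the left and 4 to the right, with 1 match, inside the gene.
TFAP2A, lost, chr6:10435246-10435259, minus strand: ccaaaattCCAACAGATGGCAGtattggcc
SFMBT2, lost, chr10:7417259-7417272, minus strand: gtctgtttCCAGTAGATGGCACtgcaaatc
PAQR3, lost, chr4:78952053-78952066, plus strand: acagtcctCCTGCAGATGGCACtcttctcc
FGFR4, gained, chr5:177090515-177090528, minus strand: gtacacggCCAGCAGGTGCCAGgcgactgc
Of the 10 lost sites with the most loops and a gene start, 8 held a match, against 4 of the 10 gained ones; the lost sites are wider (15 to 45 kb, 275 kb in all) than the gained ones (5 to 25 kb, 145 kb in all), and the shares per 5 kb bin are given further on.

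Sites with many loops were fewer in the sorbitol list, but those that were called ran to both sides more often. The mean number of loops per anchor site was 1.76 in the control list and 1.40 in the sorbitol list; it was 1.34 for the highest-scoring control loops and 1.11 for the evenly thinned ones. A single loop was found at 59.2% of control sites and 73.9% of sorbitol sites, and 3 or more loops, called a hub here, at 19.2% (18.7 to 19.7) and 8.78% (8.18 to 9.42). The highest-scoring control loops formed hubs at 5.95% of sites and the thinned ones at 0.998%, a value that even steps lower by construction. The sorbitol list had more hubs than either control list of its own length. The busiest site had 15 loops in the control list and 11 in the sorbitol list. Hubs took 41.9% of control loop ends and 22.5% of sorbitol loop ends.

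**Figure D1:**
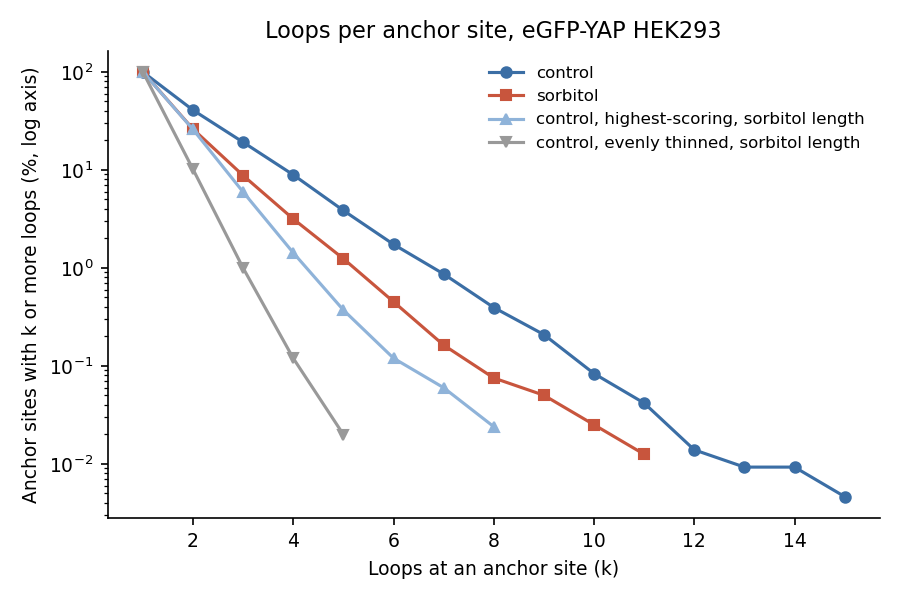
Percent of anchor sites with at least k loops (log axis) against k, for the control list, the sorbitol list, and the control list shortened to 5577 loops by score or evenly. The sorbitol line (8.78% at 3 loops) lies between the full control list (19.2%) and the shortened ones (5.95% and 0.998%).

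Of the hubs, 52.8% (49.1 to 56.5, 369 of 699) had loops to both sides in the sorbitol list, against 34.4% (33.0 to 35.9, 1421 of 4132) in the control list, 35.3% in its highest-scoring loops and 38.0% after thinning. At sites with exactly 3 loops the shares were 45.4% and 30.3%. This difference depended on how bins were joined: with every 5 kb bin its own site it was 58.4% against 15.8%, and with bins joined within 25 kb it narrowed to 55.6% against 50.5%. Sites with 2 loops ran to both sides in 29.9% (27.5 to 32.4) of sorbitol and 22.3% (21.1 to 23.5) of control cases. The thinned control list gave 28.9%, close to the sorbitol value, and the highest-scoring one 14.9%. Even steps tend to separate loops that run right from the same site, which can raise the thinned shares running to both sides.

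A loop was called nested when it lay inside another loop, and strictly nested when it shared no site with the enclosing loop. Nested loops made up 72.8% of the control list and 50.5% of the sorbitol list, against 44.4% and 25.5% in the shortened and thinned control lists. Most of this came from loops that shared 1 site with the loop around them, which were 66.1% of control loops, 39.4% of sorbitol loops and 40.6% of the highest-scoring control loops. Strict nesting was closer between the full lists, 29.9% (29.2 to 30.5) and 24.0% (22.9 to 25.1), although the sorbitol list is the shorter. At equal length the control list gave 9.11% and 12.2%. Nesting reached 6 levels in the control list and 5 in the sorbitol list.

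Crossing, in which 2 loops overlap and neither encloses the other, was nearly as frequent in the short sorbitol list as in the long control list. Loops that crossed another loop were 44.04% (43.3 to 44.7) of the control list and 40.3% (39.0 to 41.6) of the sorbitol list, against 12.4% and 18.8% in the control lists of equal length. Within the sorbitol list, crossing was found in 46.0% (44.4 to 47.6) of the 3816 loops with no match in the control list and in 27.9% (25.8 to 30.0) of the 1761 loops with a match. Within the control list the corresponding shares were 44.6% of 17206 loops and 38.2% of 1760. Loops outside any of these arrangements, neither nested, enclosing, crossing nor joined end to end, made up 4.23% of control and 16.01% of sorbitol loops. In the control lists of equal length they were more frequent than with sorbitol, at 25.3% of the highest-scoring loops and 40.4% of the thinned ones.

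**Figure D2:**
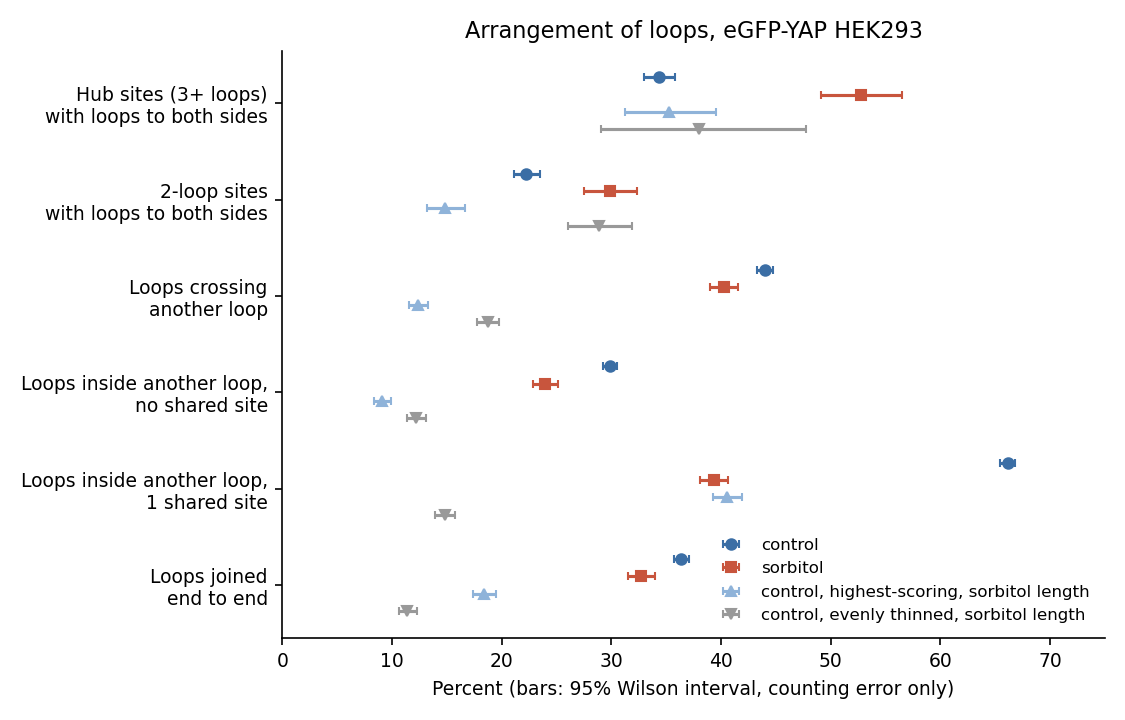
Percent of sites or loops in each arrangement, with 95% Wilson intervals, for the 2 full lists and the 2 control lists of 5577 loops. For loops that cross, lie strictly inside another or join end to end, the sorbitol points lie close to the full control list and far to the right of the control lists of equal length, whereas for loops sharing 1 site with an enclosing loop the sorbitol point (39.4%) lies beside the highest-scoring control loops (40.6%).

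Loops that follow one another through a shared site form a chain. Loops joined end to end in this way were 36.4% of the control list and 32.7% (31.5 to 33.9) of the sorbitol list, against 18.4% and 11.4% in the shortened and thinned control lists. With every 5 kb bin its own site the order of the full lists turned, to 9.69% of control and 15.9% of sorbitol loops. Among sorbitol loops the share was 37.9% for those with no match and 21.4% for those with a match; in the control list the order was the reverse, 35.7% and 42.6%. The longest chain had 10 loops with sorbitol and 9 in the control list, while the control lists of equal length reached 5 and 4. Loops that ended a chain of 5 or more numbered 103 with sorbitol, 118 in the full control list and 2 among the highest-scoring control loops.

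The longest sorbitol chain crossed chr21:44295001-46640000, 2.34 Mb, with 10 loops of 40 to 580 kb. Protein-coding genes started at 9 of its 11 sites: CFAP410, LRRC3, SUMO3, COL18A1, PCBP3, COL6A1, LSS, DIP2A and PRMT2. SUMO3 encodes a protein modifier, COL18A1 and COL6A1 collagen chains, LSS lanosterol synthase of cholesterol synthesis, and PRMT2 an arginine methyltransferase. The SUMO3 site and the first site of the chain were gained, and the other 9 were kept. A CTCF motif was found at 4 of the 11 sites. The same region, picked because it holds this sorbitol chain, had 31 control loops and 32 sorbitol loops.

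The longest control chain crossed chr5:172475001-174735000, 2.255 Mb, with 9 loops of 40 to 575 kb. Genes started at 2 of its 10 sites, STC2, which encodes the hormone stanniocalcin 2, and C5orf47. Of the 10 sites, 3 were lost and 5 held a CTCF motif. The site with the most loops in this chain, chr5:174310001-174335000, had 3 loops to the left, 4 to the right and no gene start. The largest connected group of control loops, 35 loops over 29 sites, lay in the same region (2.32 Mb), and the largest of the sorbitol list, 28 loops over 24 sites, covered chr1:1905001-7220000 (5.315 Mb).

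Sorbitol loops joined end to end met genes more often than other sorbitol loops. A gene start lay at 1 or both sites of 80.8% (78.9 to 82.6) of the 1824 sorbitol loops joined end to end and of 35.9% (34.4 to 37.5) of the other 3753. In the control list these shares were 31.7% (30.6 to 32.8) and 21.1% (20.4 to 21.8). A loop joined end to end has a site with 2 or more loops by definition, and such sites are wider. Kept sorbitol sites held a gene start in 15.7%, 40.6% and 58.0% of cases with 1, 2 and 3 or more loops. Gained sites did in 26.3%, 56.2% and 76.0%. Loops were not compared at equal loop number or site width, so the part of these was not tested. Kept sorbitol sites with 2 or more loops held a gene start in 68.7% of cases when the loops ran to both sides and in 35.6% when they ran to 1 side. At gained sites these shares were 64.5% (58.3 to 70.2) and 57.8% (51.9 to 63.4), with overlapping intervals. For control sites that were kept the same shares were 30.3% and 19.5%.

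Control sites with more loops were kept more often. A sorbitol anchor was found at 15.0% of control sites with 1 loop, 27.9% with 2, 42.7% with 3 or 4, and 62.6% (59.2 to 65.8) with 5 or more. Sites with more loops are also wider, which helps them find a match; among sites of a single bin the shares were 15.0%, 28.0%, 43.7% and 47.4% (9 of 19 sites). A kept site did not always keep its loops: at 41.1% of kept control sites, no loop was called again between the same sites. Of 4581 kept sites that paired 1 to 1 between the lists, 53.6% had fewer loops with sorbitol, 34.3% the same number and 12.1% more, and the mean fell from 2.40 to 1.47 loops. Of 1722 paired control hubs, 247 (14.3%) were still hubs with sorbitol.

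Most kept sites with control loops to 1 side kept that direction, and most with loops to both sides did not. Paired sites with control loops to the left only had sorbitol loops to the left only in 78.8% of cases, and those to the right only stayed so in 78.1%. Of 895 paired sites with control loops to both sides, 143 (15.98%) ran to both sides with sorbitol, 41.7% to the left only and 42.3% to the right only. A site with 1 loop cannot run to both sides, and paired sites had a median of 2 control loops and 1 sorbitol loop. These shares therefore also follow the smaller number of sorbitol loops, and no control list of equal length was paired in this way. Where the site had loops to 1 side in each list and none of its loops was called again, 469 of 1397 (33.6%, 31.1 to 36.1) had turned to the other side. Of the sorbitol-only loops, 28.1% joined 2 kept sites, 50.4% joined 1 kept and 1 gained site, and 21.5% joined 2 gained sites. Of the control-only loops, 56.2% joined 2 lost sites and 7.57% joined 2 kept sites.

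Gene starts were more frequent at gained sites than at lost or kept ones. A protein-coding gene (GENCODE release 44) started at 32.7% (30.98 to 34.4, 929 of 2843) of gained sites and at 7.68% (7.28 to 8.09, 1258 of 16390) of lost sites. Moving the sites by 100 kb gave 8.83% and 5.40%. Kept sites lay between, at 25.2% in sorbitol coordinates (7.72% moved) and 21.7% in control coordinates (10.6% moved). Per covered length this was 71.3 gene starts per Mb at gained sites, 47.9 and 28.4 at kept sites, 12.5 at lost sites, and 6.59 over the genome. RefSeq, another annotation, placed the start in a site of the same class for 861 of 937 genes (91.9%) at gained sites and 972 of 1119 (86.9%) at lost sites.

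The share with a gene start rose with the number of loops at gained sites and at kept sites in sorbitol coordinates, and not at lost ones. Gained sites of a single bin held a gene start in 26.3% of cases with 1 loop, 56.5% (49.3 to 63.4) with 2, and 70.0% (52.1 to 83.3, 21 of 30) with 3 or more. Kept sites of a single bin in sorbitol coordinates rose as well, at 15.7%, 37.5% (32.8 to 42.5) and 52.2% (42.0 to 62.2, 47 of 90). In control coordinates kept sites of a single bin gave 20.0%, 14.7% and 12.5%. Lost sites of a single bin gave 6.02%, 6.85% and 4.26% (2.55 to 7.02, 14 of 329). With joined bins, which are wider where loops are many, lost sites reached 12.0% and gained sites 76.0% at 3 or more loops. Sorbitol-only loops had a gene start at both ends in 27.4%, 24.1% and 25.8% of cases when they joined 2 kept, 1 kept and 1 gained, and 2 gained sites, while 2.46% of control-only loops did. Centres of gained sites lay in introns in 56.4% of cases, in exons in 11.6% and outside genes in 31.9%; for lost sites the shares were 47.3%, 5.91% and 46.8%.

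**Figure D3:**
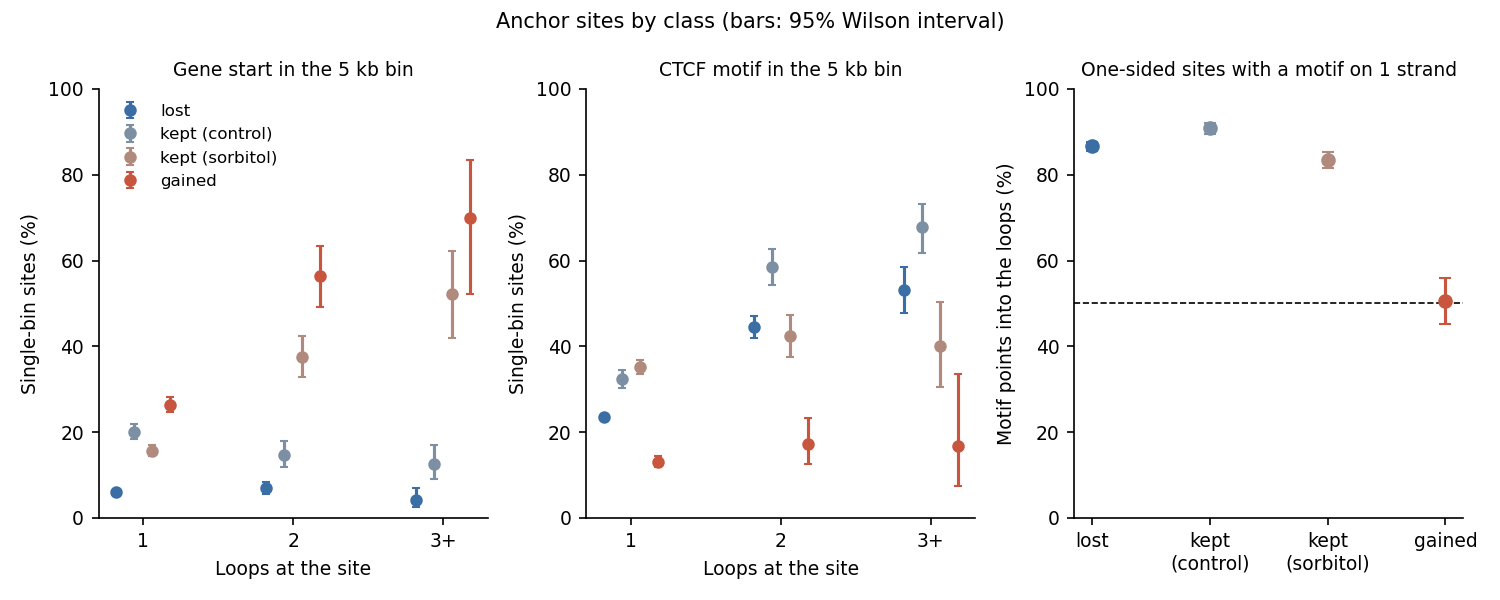
Percent of single-bin anchor sites with a protein-coding gene start (left) and with a CTCF motif (middle) by the number of loops at the site, and percent of one-sided sites whose motif points into their loops (right), for lost, kept and gained sites with 95% Wilson intervals. With 3 or more loops, gene starts rise to 70.0% at gained sites and to 52.2% at kept sites in sorbitol coordinates. They stay between 4.26% and 6.85% at lost sites, and motif direction is 86.7% at lost and 50.6% at gained sites, beside the 50% line.

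The CTCF motif was most frequent at kept sites and least frequent at gained ones. A match was found in 27.05% (26.5 to 27.6) of the 5 kb bins of lost sites, 37.4% and 34.4% of those of kept sites in control and sorbitol coordinates, and 13.9% (12.8 to 15.2) of those of gained sites, where moving the bins by 100 kb gave 12.2%. The moved bins of lost sites gave 9.59%. At lost sites a match was more frequent with more loops, 23.5%, 46.4% and 59.6% at 1, 2 and 3 or more, and at gained sites 13.1%, 23.9% and 27.2%. Joined sites are wider where loops are many. Lost sites of a single bin still rose, at 23.5%, 44.4% and 53.2%. Gained sites of a single bin gave 13.1%, 17.2% (12.5 to 23.3) and 16.7% (7.34 to 33.6, 5 of 30), with overlapping intervals. At sites with loops to 1 side and matches on 1 strand, the motif pointed into the loops in 86.7% (85.6 to 87.7, n = 4286) of lost, 90.8% and 83.5% of kept and 50.6% (45.3 to 55.9, n = 334) of gained sites. With no mismatch allowed the gained share was 70.5% (55.8 to 81.8) over 44 sites, and the lost share 93.4% over 1036. A match is a run of letters and does not show that CTCF was bound.

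Kept control sites with loops to both sides carried the motif on both strands more often than those with loops to 1 side. Among kept control sites of 2 or more loops, 20.1% (17.7 to 22.7) of those with loops to both sides and 7.09% (6.10 to 8.22) of those with loops to 1 side had matches on both strands. Kept sorbitol sites gave 9.12% and 7.34%, a difference within their intervals. These are joined sites, which are wider where loops are many, and a wider site has more room for matches. Sites of a single bin were not compared in this way, so the part of width was not tested. Any match at all was found at 72.3% and 66.6% of these control sites, and at 44.3% (40.2 to 48.5) and 58.5% (55.5 to 61.5) of the sorbitol ones, where the sites with loops to both sides held fewer.

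Promoters at gained sites held GC boxes and ETS letters more often than those at lost sites. RefSeq promoters of 300 bases were found for 937 of 1129 gene symbols (83.0%) at gained sites, 1810 of 2181 at kept sites, 1119 of 1379 (81.1%) at lost sites and 15587 of 19360 of all protein-coding genes. The GC box GGGCGG lay in 76.2% (73.4 to 78.8) of promoters at gained sites, 71.7% at kept sites, 62.4% (59.5 to 65.2) at lost sites and 59.1% of all. The ETS letters CCGGAAG lay in 22.4% (19.9 to 25.2), 17.8%, 13.8% (11.9 to 15.9) and 14.4%, and the YY1 letters AAGATGG in 10.1% (8.37 to 12.2), 8.01%, 5.27% (4.11 to 6.74) and 6.40%. The TATA letters TATAAA ran the other way, at 4.38%, 6.35%, 8.13% and 9.62%. The TEAD letters GGAATG, which share GGAA with the ETS letters and can overlap them, lay in 11.1%, 10.2%, 12.2% and 11.7%, with overlapping intervals for gained and lost sites, as did the AP-1 letters TGANTCA at 3.74%, 4.64%, 3.13% and 5.76%. All were searched on both strands. The classes also differed in composition. Promoters with at least 50% GC and a CpG ratio (CG found over CG expected from the bases) of at least 0.6 were 86.3% (84.0 to 88.4) at gained sites. They were 79.1% at kept sites, 70.8% (68.0 to 73.4) at lost sites and 64.1% of all. Motif shares were not compared at equal composition, so the part of composition was not tested.

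Of the 10 busiest lost sites with a gene start, 8 had all their loops on 1 side, and at 7 no loop ran to another gene start; over all 12 with at least 7 loops these counts were 9 and 9. The TFAP2A site (chr6:10415001-10445000) had 10 control loops, all to the left, spanning 390 to 2300 kb with a median of 1462.5 kb, and none of their other ends held a gene start. The site at NR2F2, an orphan nuclear receptor (chr15:96315001-96360000), had 6 loops to the left and 3 to the right, again none to a gene start. PAQR3 (chr4:78935001-78960000) had 9 loops to the right over 570 to 2085 kb, of which 2 met gene starts, those of BMP3 and CFAP299. SFMBT2 (chr10:7405001-7435000) and C11orf58 (chr11:16600001-16620000) each had 9 loops, all to the left. The site at the 5′ end of the HOXD cluster (chr2:176080001-176100000), with the starts of EVX2, HOXD13 and HOXD12, which pattern limbs and the posterior body, had 8 loops to the left over 500 to 930 kb. The remaining 4 were TTF2, ATP13A4 with OPA1, OR5B21 and CALCRL, with 7 or 8 loops, of which OR5B21 and TTF2 had loops to gene starts (3 and 1). The lost site with the most loops of all, 15, held no gene start (chr14:29500001-29580000).

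Of the 10 busiest gained sites with a gene start, 9 had loops to both sides, and at 8 most of the loops ran to another gene start. Sites with equal numbers of loops were ranked by their summed score; over all 17 gained sites with a gene start and at least 5 loops, these counts were 16 and 14. The FGFR4 site (chr5:177085001-177095000) had 7 sorbitol loops over 225 to 545 kb, and 5 of them met the starts of genes such as DBN1, MXD3, RNF44, TSPAN17 and UNC5A. PTDSS2, a phosphatidylserine synthase (chr11:445001-450000), had 2 loops to the left and 4 to the right over 60 to 370 kb, all 6 to gene starts, SIRT3 and RNH1 among them. ZNF225 (chr19:44095001-44120000) had 6 loops over 110 to 400 kb, and 5 met gene starts, all of zinc finger genes (ZNF180, ZNF221, ZNF227, ZNF230 and ZNF235). FARP2 (chr2:241350001-241360000) had 5 loops of which 1 met a gene start, that of the kinase STK25, and UCKL1 (chr20:63935001-63960000) 5 of which 2 did. Others were RECQL4 with LRRC14 and 2 more genes and ENSG00000267952 with 6 loops each, and SNAP47 with JMJD4 and PALM with 5 each.

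Some kept sites had more loops with sorbitol although the list as a whole is shorter. Those named here were picked from the kept sites with a gene start for having the most sorbitol loops. PACS2, which encodes a sorting protein (chr14:105275001-105315000), had 2 control loops and 10 sorbitol loops, 6 to the left and 4 to the right, 7 of them to gene starts. Its neighbour CDCA4 (chr14:105020001-105030000) went from 1 loop to 8. The site of TMEM141, CCDC183 and RABL6 (chr9:136785001-136815000) went from 6 loops, all to the right, to 9, of which 2 ran left. TSPAN17 (chr5:176640001-176675000) went from 6 to 9 loops, of which 1 joined it to the gained FGFR4 site.

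**Figure D4:**
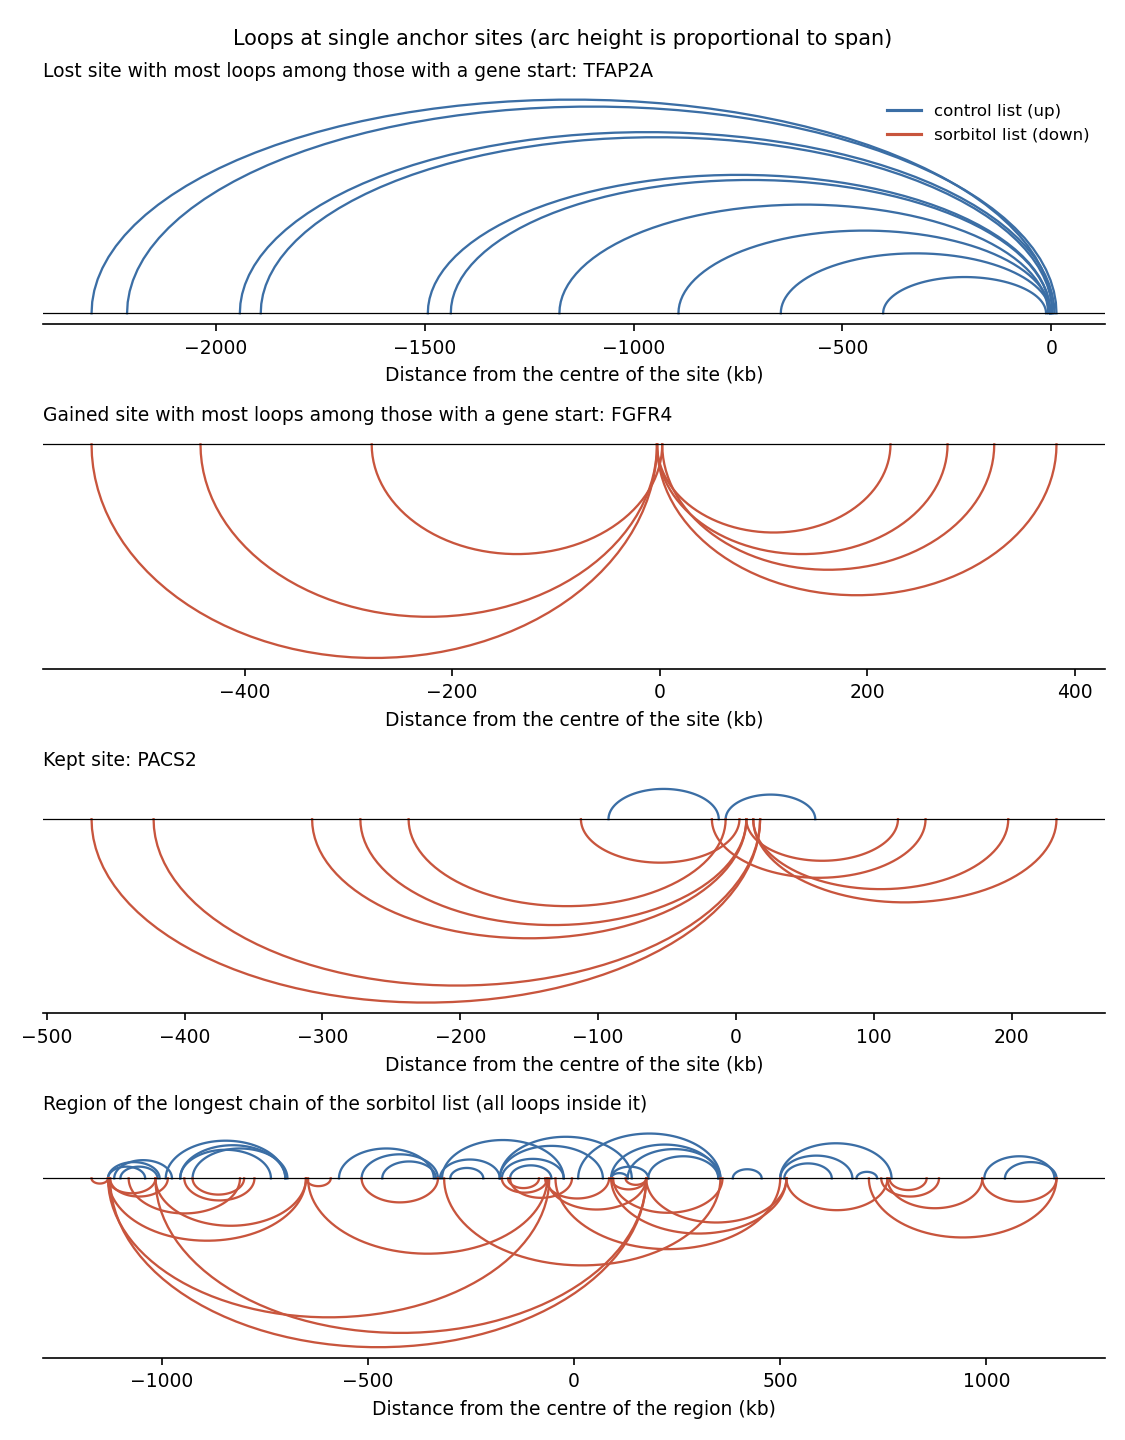
Loops drawn as arcs, control above and sorbitol below the line, against distance in kb from the centre of the lost TFAP2A site (10 control loops), the gained FGFR4 site (7 sorbitol loops), the kept PACS2 site (2 control, 10 sorbitol) and the region of the longest sorbitol chain (31 control, 32 sorbitol). Every TFAP2A arc runs left, whereas the FGFR4 and PACS2 arcs run to both sides over shorter distances.

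In all, 1167 of 19970 protein-coding genes started at a gained site (5.84%), 1413 at a lost site (7.08%) and 2269 at a kept site in either coordinates (11.4%). The order of lost and gained genes turned with the setting: identical bins gave 2055 gained and 1920 lost, and the highest-scoring control loops 2238 gained and 321 lost, so the counts by class below hold for the full lists and the 10 kb distance. Counted by list, 14.0% of gene symbols had a control loop at their start and 14.1% a sorbitol loop, so the sorbitol list met about as many genes with 5577 loops as the control list with 18966. The gene lists that follow are described against these shares; in the loop counts, a gene at a kept site can have 0 loops in 1 list where its start lies only within the site of the other.

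Among 80 ribosomal protein genes, 11 had a control loop at their start (13.8%) and 26 a sorbitol loop (32.5%), and 13 started at a gained site (16.2%) against 5 at a lost one. RPS15 went from 0 to 4 loops, RPL8 and RPL26 from 0 to 3 each, and RPS3 and RPL3, at kept sites, from 0 to 2 each. RPL21 was among the lost, from 2 loops to 0. Of 40 immediate-early and stress response genes, 7 had a control loop (17.5%) and 13 a sorbitol loop (32.5%), with 3 at gained sites (7.5%). These were BTG2, IER2 and ZFP36, with 1 sorbitol loop each. DDIT3, a transcription factor of the unfolded protein response, and the chaperone gene HSP90AA1 went from 1 to 3, KLF10 from 0 to 3, and the phosphatase gene DUSP1 and the chaperone gene DNAJB1 from 0 to 2. DUSP6, GADD45B and PPP1R15A were at lost sites.

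Of 22 YAP/TEAD target genes, 10 had a control loop at their start (45.5%) and 5 a sorbitol loop (22.7%). CCN1, a matricellular protein and classic YAP target, and GADD45A each had 2 control loops, 1 to each side, and none with sorbitol. TGFB2 had 7 control loops, FJX1 6, MYOF 4 and FOXF2 3, and none of their starts lay in a sorbitol site, although an anchor lay within 10 kb of their sites. CRIM1 went from 4 loops to 2 and AMOTL2 from 3 to 1, while IGFBP3 and AJUBA had 2 in each list. ARHGEF17 alone was at a gained site, with 1 loop (1 of 22, 4.55%, near the share of all genes). In the Hippo pathway list of 32 genes, 4 had a control loop (12.5%) and 6 a sorbitol loop (18.8%). The transcription factor genes TEAD2 (0 to 3 loops) and TEAD4 (0 to 1) were at gained sites, and the kinase genes LATS1 (2 to 0) and STK3 (1 to 0) at lost sites. Each pair made up 6.25% of the list, near the shares of all genes at gained (5.84%) and lost sites (7.08%).

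Of 36 genes of osmotic stress and cell volume, 8 started at lost sites (22.2%) and 0 at gained ones. In this list 11 had a control loop (30.6%) and 4 a sorbitol loop (11.1%). The lost ones were LRRC8B and LRRC8C, subunits of the volume-regulated anion channel with 3 control loops each, the Na-K-Cl cotransporter gene SLC12A2, the sodium pump subunit gene ATP1B1 and the kinase gene MAP3K5 with 2 each, the water channel gene AQP5 with 4, and SLC38A2 and SLC5A3, carriers of amino acids and of the osmolyte myo-inositol, with 1 each. WNK1, a kinase that senses chloride, went from 1 loop to 2. Of 24 genes of chromatin architecture, 6 had a control and 8 a sorbitol loop. The cohesin subunit genes SMC3 (0 to 2 loops) and RAD21 (0 to 1), YY1 (0 to 1) and ZNF143 (0 to 1) started at gained sites, and the cohesin cofactor genes PDS5B (2 to 0), ESCO1 (2 to 0) and MAU2 (1 to 0) and ADNP (1 to 0) at lost sites. MAZ, a zinc finger factor gene, went from 0 to 5 loops at a kept site, and PDS5A from 7 to 1. Loops at a gene start say nothing of its expression, which was not analysed here.

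Fewer developmental regulators had a sorbitol loop than a control loop. Of 32 kidney developmental regulators, 8 had a control and 4 a sorbitol loop, and of 39 HOX cluster genes, 14 and 9. FOXC1 went from 11 loops to 5 and FOXC2 from 8 to 1, all to the right, and PAX2, required for kidney formation, from 3 to 0. In the HOX clusters HOXD13 went from 8 loops to 0, HOXA13 from 9 to 0 and HOXB5 from 4 to 0, while HOXC4 went from 0 to 1 at a gained site. The kidney regulators POU3F3 and IRX3 were gained with 1 loop each (6.25% of their list, near the 5.84% of all genes). Of 76 canonical histone genes, 15 had a control (19.7%) and 21 a sorbitol loop (27.6%). Of 508 zinc finger genes, 46 (9.06%) and 53 (10.4%) did, and of 53 clustered protocadherin genes 7 and 7 (13.2% each). Olfactory receptor genes, silent in most tissues, had a control loop in 11 of 415 (2.65%) and a sorbitol loop in 6 (1.45%). For keratin genes it was 3 (5.45%) and 1 (1.82%) of 55.

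Loop density was measured by counting loop midpoints in 1 Mb windows. The control list had loops in 2526 windows and the sorbitol list in 1603; 936 windows had control loops alone and 13 sorbitol loops alone, and in 90 windows sorbitol loops were the more numerous. The sorbitol list was more concentrated: the densest 292 windows held 46.3% of its loops, against 24.4% in the control list and 28.9% and 24.7% in the control lists of equal length. Control and sorbitol counts rose together over windows (Spearman rho 0.66 over 2921 windows, a description of windows that share gene content and mappability).

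Windows rich in genes had the most sorbitol loops per control loop. In windows without a protein-coding gene start, there were 1.69 control loops and 0.167 sorbitol loops per window (ratio 0.0986, interval 0.0765 to 0.126). The ratio was 0.164 at 1 to 5 gene starts, 0.300 (0.286 to 0.315) at 6 to 15, 0.520 (0.485 to 0.558) at 16 to 30, and 0.744 (0.678 to 0.816) at 31 or more, where the control list had 12.0 loops per window and the sorbitol list 8.93. None of the intervals of these 5 ratios overlap. GC content moved with gene number (Spearman rho 0.69 across windows), so the 2 cannot be told apart here.

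**Figure D5:**
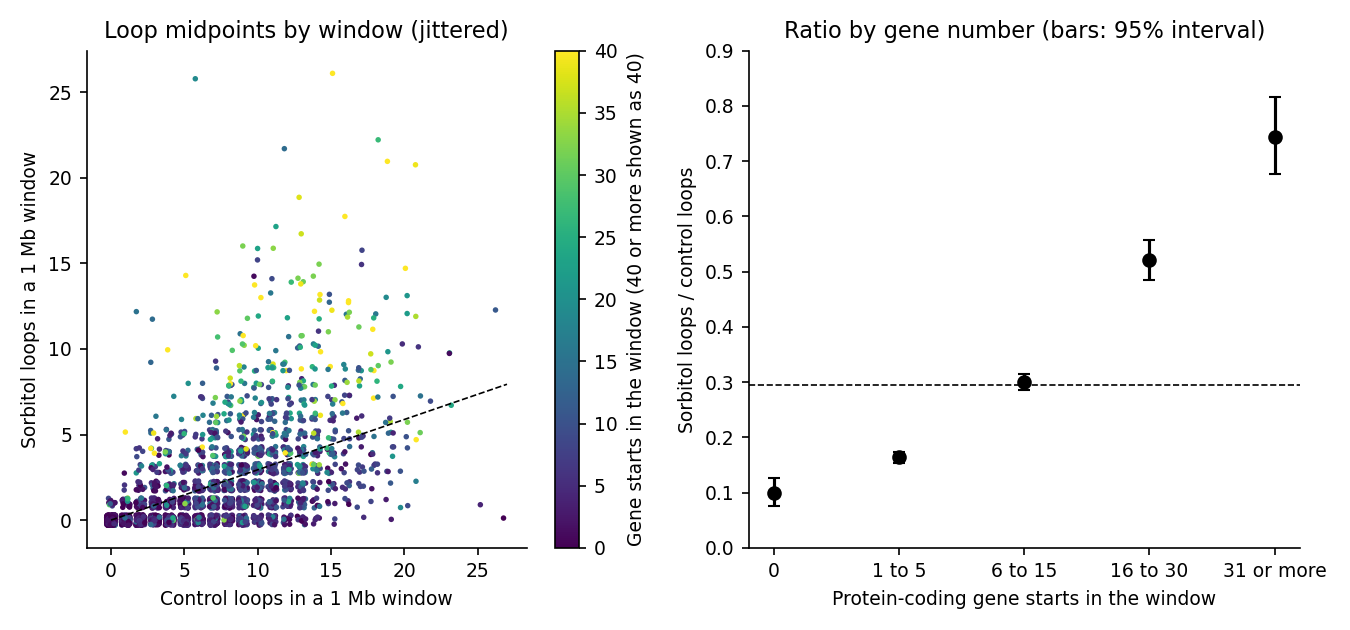
Sorbitol loops against control loops in 1 Mb windows, coloured by gene starts, with the line of the overall ratio (left), and the ratio of sorbitol to control loops by gene starts per window with 95% exact intervals (right). Gene-rich windows lie above the line, and the ratio rises from 0.0986 in windows without a gene start to 0.744 in those with 31 or more.

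Of 1898 windows with at least 5 loops in all, 347 (18.3%) had a share of the sorbitol loops over 2-fold higher than of the control loops, after 1 loop was added to each count, and 359 (18.9%) had one over 2-fold lower. The split between higher and lower windows moved with the setting. It was 262 and 587 when the added loop was scaled to list length, 671 and 303 in 500 kb windows, 155 and 265 in 2 Mb windows, 353 and 657 when loop ends were counted, and 245 and 133 against the highest-scoring control loops. The higher windows had a median of 14 gene starts and 45.5% GC and held 44.6% of sorbitol and 15.2% of control loops, and 59 of them lay within 3 Mb of a chromosome end. The lower windows had a median of 4 gene starts and 39.3% GC and held 17.2% of control and 0.735% of sorbitol loops, and 1 lay within 3 Mb of an end. On chromosome 19, 36 of 46 windows were higher and 1 lower, on chromosome 22, 16 and 1 of 32, whereas on chromosome 18 it was 4 and 13 of 45. The longest run of higher windows was chr19:1-8000000, with 95 control loops, 93 sorbitol loops and 246 gene starts.

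The 5 windows with the largest rise in share lie within 3 Mb of a chromosome end. The windows given with intervals here were picked from 1898 for the size of their change in share. Each interval is that of a single window and does not cover this choice. The first was chr1:2000001-3000000, with 2 control and 12 sorbitol loops, and genes such as SKI, PRKCZ and HES5; its share ratio was 20.4 (exact interval 4.54 to 188). In chr2:241000001-242000000, which holds FARP2, STK25, HDLBP and SEPTIN2, 6 control loops stood against 26 sorbitol loops (14.7, 5.93 to 43.8). In chr12:132000001-133000000, with POLE, CHFR and GOLGA3, 3 stood against 12 (13.6, 3.67 to 75.1). In chr16:2000001-3000000, with TSC2 and PKD1, 5 stood against 14 (9.52, 3.24 to 33.8). Among the windows emptied of loops, chr14:29000001-30000000, without a gene start, had 27 control loops and no sorbitol loop, a share at least 2.65-fold lower when 3 loops are taken as the limit that a count of 0 allows. The exact interval of the share ratio, which also covers the counting error of the control loops, reached 0.498 there. The window chr9:70000001-71000000, with MAMDC2, SMC5 and KLF9, had 19 control loops and 0 sorbitol loops, with an exact interval up to 0.729, and chr17:61000001-62000000, with the T-box genes TBX2 and TBX4, 17 and 0, up to 0.824. The longest run of lower windows was chr1:169000001-173000000, with 38 control loops, 0 sorbitol loops and 31 gene starts.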

How the data were processed

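In situ Hi-C ligates DNA ends that lie close together in the nucleus, here after MboI digestion, per the labels' protocols. The submitters' processing notes name the builds hg38 and GRCh38. The deposited loop lists have the columns of the SIP loop caller, per the file headers. Its version and settings, the aligner, the normalisation of the contact maps, the depth and the replicates pooled are not given in the sources used here. The names of both lists carry a source name that the labels do not explain. The deposited score of a loop is the authors' own value on an unstated scale. The deposited coordinates are 5 kb bins, per the file headers. The other columns were not used, and 0 columns had no group.

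Anchors were sorted (1 control loop was reversed). Loops matched when both anchors lay within 10 kb, and bins within 10 kb formed a site. Genes were protein-coding genes of GENCODE release 44 on hg38, and promoters were RefSeq's (GRCh38.p14). Shares have Wilson intervals and ratios exact (Clopper-Pearson) ones at 95%; loops that share sites are not independent, so these are narrow. Joining of bins into sites, nesting, crossing, chains and the matching of loops were tested on made-up loops. The window counts and the kept, lost and gained classes were not. Alternatives were other joining and matching distances, windows, list lengths, gene sets and, chosen after seeing the data, the added loop in proportion to list length, motif mismatches and the settings for crossing and for hubs with loops to both sides. The named sites are those with the most loops: 10 lost and 10 gained sites with a gene start, 5 kept ones, the longest chain of each list, and the windows with the largest change. Some of these are not reported here. The members, lists and rules were chosen with earlier results of these data known, so no pattern is independent support for them. Software: Python 3.11.15, pandas 2.3.3, numpy 2.4.6, scipy 1.17.1, pysam 0.24.0 and matplotlib 3.10.9.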

Additional observations from a re-analysis of the deposited data

How the results depend on the processing

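No paired analysis was possible because each condition has 1 pooled list with no replicate columns, and leaving out replicates could not be done for the same reason. Of 80 values under an alternative, 12 stayed within the counting interval (or 1.5 times the count) and 68 moved; where the alternative does not show why by its construction (fewer or wider bins, fewer loops, more genes), the cause was not tested. Loop depth, and so the number of calls, limits all counts.

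With each 5 kb bin its own site, control and sorbitol values were 1.26 and 1.15 loops per site, 4.77% and 2.26% hubs, 65.1% and 44.1% nested, 9.69% and 15.9% joined end to end, 65.03% and 55.7% crossing, and 15.8% and 58.4% of hubs with loops to both sides. The control list had the smaller share joined end to end here and the larger with sites joined at 10 kb. With bins joined within 25 kb they were 2.09 and 1.57 loops per site, 27.5% and 13.2% hubs, 58.4% and 42.6% end to end, 36.1% and 29.6% crossing, 52.0% nested (sorbitol) and 50.5% of control hubs with loops to both sides. The control list shortened by score gave 1.34 loops per site, 5.95% hubs, 44.4% nested, 18.4% end to end and 12.4% crossing; thinned evenly it gave 1.11, 0.998%, 25.5%, 11.4% and 18.8%, with 38.0% of hubs to both sides. The upper 50% of the sorbitol list by score gave 1.29, 5.94%, 39.4%, 23.9% and 26.8%.

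Lost sites were 89.5% of control sites with identical bins, 68.6% at 25 kb and 65.8% with the shortened control list; gained sites were 67.2%, 20.4% and 64.0%. Gene starts lay at 6.41%, 9.11% and 5.27% of lost sites and at 25.8% (identical bins) and 34.5% (shortened) of gained ones. Widening sites by 5 kb gave 15.3% and 50.3%, and starts of all annotated genes 16.2% and 40.2%. The gained sites had the larger share in each. Genes at gained sites numbered 2055, 629, 2238, 1934 and 1801 under these 5 settings, and genes at lost sites 321 (shortened), 2955 (widened) and 3431 (all genes); genes at lost sites outnumbered those at gained ones with sites widened, with all genes and at 25 kb, and were fewer with identical bins and with the shortened list. Higher windows numbered 671 at 500 kb and 155 at 2 Mb, and lower windows 657 with loop ends, 133 with the shortened list and 587 with the added loop in proportion to list length. With no motif mismatch, motifs pointed into the loops at 93.4% of lost and 70.5% of gained sites.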
